A study of Mus musculus with 3 samples.

Results

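The replication dependent and linker histone genes of mouse skin were followed through cycling and noncycling cells in 3 single-cell RNA libraries. All genes whose symbol starts with H1f, H2ac, H2bc, H3c or H4c and continues with a digit were taken, which gave 73 of the 33696 genes counted. They comprise 11 H1f genes for linker histone H1, 18 H2ac genes for H2A, 19 H2bc genes for H2B, 12 H3c genes for H3 and 13 H4c genes for H4. The H2bc group contains the pseudogene H2bc26-ps.

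The 3 libraries came from wax-depilated dorsal skin of female C57BL/6 mice aged 9 weeks, and each pooled tissue from mice. The Cont library came from mice given vehicle. The CIA library came from a mouse model of hair loss caused by chemotherapy (CIA), and the CIA+VFX library from mice of that model that were also treated with venlafaxine (VFX), an antidepressant that blocks the reuptake of serotonin and noradrenaline. All 3 groups therefore share depilation, strain, sex and age. The chemotherapy agent, the doses, the time of sampling and the number of mice per pool are not given in the sources used here. With 1 library per condition, differences between conditions are given without a test, and their intervals cover counting error only.

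Nucleosomes wrap DNA around an octamer of the core histones H2A, H2B, H3 and H4, and linker histone H1 binds the DNA between them. The genes followed here are mostly replication dependent: cells transcribe them during S phase, when new DNA has to be packaged, and the mature mRNA ends in a short stem-loop bound by SLBP instead of a poly(A) tail. Some of the same genes are also known to make polyadenylated mRNA in nondividing and differentiating cells, and H1f0 and H1f10 are linker histone genes that cells use outside replication. In skin, dividing cells lie in the basal epidermis, the outer root sheath and the hair bulb. The libraries were primed on poly(A) tails, so the counts report the histone transcripts that such priming captures, not the whole histone mRNA of a cell.

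The stem-loop is the feature that sets these transcripts apart, so the 3' ends of members with contrasting behaviour in cycling cells are shown. Transcript models of all 73 genes were found in GENCODE M21, which uses build GRCm38, whereas the libraries were counted on GRCm39. The 16-base stem-loop, as in the capitals of the H2ac24 line, was present exactly in 26 of 73 members (35.6%) and in 29 of all 55450 annotated genes (0.0523%). With up to 1 mismatch it was found in 33 members (45.2%). The stem-loop is in capitals, and 5 bases on each side are in lower case where the model extends that far.
H2ac24: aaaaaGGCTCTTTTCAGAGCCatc
H2ac4: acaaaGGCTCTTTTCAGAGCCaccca
H2bc11: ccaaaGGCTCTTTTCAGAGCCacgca
H3c3: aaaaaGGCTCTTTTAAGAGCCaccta
H1f2: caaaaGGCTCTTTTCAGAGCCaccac
H2ac6: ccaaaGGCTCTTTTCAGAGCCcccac
H3c4: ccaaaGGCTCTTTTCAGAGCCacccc
The model of H2ac24 ended 3 bases after the stem-loop, that of H2ac4 after 11, that of H2bc11 after 23 and that of H3c3 after 74. By contrast the models of H1f2, H2ac6 and H3c4 ran on for 840, 2010 and 752 bases. The poly(A) signal AATAAA lay in the last 60 bases of 19 of 73 member transcripts (26%), compared with 37% over all genes. H2bc4, H1f0, H1f5 and H1f10 had no match to this pattern in the annotated transcript, and neither had any H4c gene tested below. Only 1 pattern was searched, so stem-loops that differ from it by more than 1 base were not found. Models that stop before a stem-loop were missed too. The counts are of matches to the pattern, and a gene without a match may still have a stem-loop.

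Promoters are shown for 3 members whose levels moved in cycling cells, because genes of this family share short promoter motifs. The 250 bases before the transcription start come from RefSeq on GRCm38.p6, and 62 of the 73 members had an entry, with 63 windows in all. The windows are chr13:23571221-23571470 on the minus strand for H2ac8, chr13:23745522-23745771 on the minus strand for H3c3 and chr13:23738557-23738806 on the plus strand for H1f2. The motifs searched on both strands are in capitals: the octamer ATTTGCAT, CCAAT and TATAAA.
H2ac8: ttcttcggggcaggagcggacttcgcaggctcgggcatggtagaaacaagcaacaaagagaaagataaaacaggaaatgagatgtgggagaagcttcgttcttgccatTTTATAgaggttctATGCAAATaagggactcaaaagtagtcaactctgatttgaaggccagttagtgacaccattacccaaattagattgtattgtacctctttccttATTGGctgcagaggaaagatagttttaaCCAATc
H3c3: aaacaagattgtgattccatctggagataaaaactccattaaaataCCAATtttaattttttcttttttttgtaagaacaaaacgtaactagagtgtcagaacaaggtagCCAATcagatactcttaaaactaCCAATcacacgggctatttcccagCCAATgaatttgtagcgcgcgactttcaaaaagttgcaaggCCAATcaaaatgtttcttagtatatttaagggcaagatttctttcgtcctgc
H1f2: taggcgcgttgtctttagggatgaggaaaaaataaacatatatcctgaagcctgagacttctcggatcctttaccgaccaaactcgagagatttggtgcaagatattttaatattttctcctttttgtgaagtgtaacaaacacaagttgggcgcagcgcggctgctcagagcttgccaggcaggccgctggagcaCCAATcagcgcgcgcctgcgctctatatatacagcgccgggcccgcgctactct
The octamer was present in 13 of the 63 member windows (20.6%), compared with 1.6% of all promoter windows. It was found in 6 of 17 H2ac windows and 7 of 15 H2bc windows and in 0 of the H1f, H3c and H4c windows. CCAAT was present in 79.4% of member windows and 33.8% of all windows, including all 17 H2ac and all 15 H2bc windows. TATAAA was present in 44.4% of member windows and 12.4% of all. In 9 cases an H2A and an H2B gene faced each other with overlapping windows, as H2ac8 and H2bc8 did over 179 bases.

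The 73 members together held 491383 unique molecular identifiers (UMIs, each standing for 1 captured mRNA molecule). H1f genes took 42.2% of them, H2bc genes 33.3%, H2ac genes 15.1%, H4c genes 5.79% and H3c genes 3.57%. H2bc4 alone held 145600 UMIs and H1f2 held 68204, and the 6 genes with most UMIs held 75.2% of the total. H2ac19, H4c17, H2ac1 and H2bc1 had 0 UMIs, 9 further members had fewer than 100, and 34 members had at least 1000. These are shares of molecules captured at 3' ends, not levels per transcript length. Many members have near-identical coding sequences, so the split of UMIs between copies is uncertain wherever reads do not reach a distinguishing stretch.

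The libraries held 14529, 17675 and 18987 cell barcodes for Cont, CIA and CIA+VFX, with 143164803, 130557879 and 155210692 UMIs. After filters on genes, mitochondrial share and simulated doublets, 11904, 15401 and 15372 cells were kept, with median depths of 6854, 5068 and 5480 UMIs. Between 49 and 81 kept barcodes were shared by any pair of libraries. Cells were classed one by one from marker genes, 32649 were classed and 10028 were left unassigned, so class names carry the suffix "-like". Each of the 16 classes used had between 5 and 11 of its markers detected, with epithelial, stromal, vascular, pigment and immune classes all present in every library, as whole skin holds. The keratinocyte-like group joined the basal and outer root sheath, companion layer, suprabasal, upper follicle, inner root sheath, matrix and hair shaft, and sebocyte classes and held 13463 cells. Within it, lists of S and G2/M genes that contain no histone gene gated 1606 cells as S, 2463 as G2/M and 5966 as noncycling, while 2099 were intermediate and 1329 too shallow to gate. Of the 4069 gated cycling cells, 732 had exactly 3 UMIs of the deciding list, the smallest number allowed. Gated cycling cells were deeper than noncycling ones, with median UMIs of 16483.5, 9593 and 10684.5 in S cells of Cont, CIA and CIA+VFX against 11098.5, 7480 and 7908 in noncycling cells. Levels below are CPM, the counts of a gene scaled to the summed UMIs of the cells of a library.

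Most replication dependent histone genes were higher in S-gated than in noncycling keratinocyte-like cells. Of 59 members tested, 39 rose and 5 fell, and the median log2 fold change was 1.89 compared with -0.03 over all genes (edgeR quasi-likelihood test with a library block, Benjamini-Hochberg adjusted p under 0.05). Over all 15486 genes tested, 21% were called higher and 19.7% lower. In 36 of the 39 genes that rose, the lowest S library was above the highest noncycling library, and the 5 that fell showed the reverse without overlap. Over all genes tested, 19.5% were called higher and 16.5% called lower with no overlap between the libraries of the 2 states. With gates on unthinned counts, 22 of 49 members rose and 4 fell, compared with 25.1% and 19.9% of all genes. The 3 libraries that serve as replicates here are the 3 conditions, so the test asks whether the cell cycle difference recurs across them.

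Of the H2ac genes, which encode H2A, 10 of 14 tested members rose and 1 fell, with a median log2 fold change of 3.03. H2ac24 was at 49.1, 28 and 45.3 CPM in noncycling cells of Cont, CIA and CIA+VFX and at 271, 99.2 and 193 CPM in S cells. Every S library was above every noncycling library, and the log2 fold change was 2.12 with SE 0.14 (edgeR adjusted p = 0.000216). H2ac8 went from 13.8, 8.52 and 12.2 CPM to 128, 68.3 and 97.1 CPM, a log2 fold change of 3.06 with SE 0.098 (edgeR adjusted p = 3.47e-05). H2ac4 went from 1.58, 1.15 and 1.99 to 25.2, 12.3 and 15.9 CPM, and H2ac20 from 2.26, 1.76 and 2.29 to 27.6, 9.68 and 18.5 CPM. For these 3 genes, too, the groups did not overlap. H2ac12 had 0 UMIs in noncycling cells and was at least 24-fold higher in S cells, against a floor of 3 UMIs over the group. It passed the count filter through the S cells and could only rise, and it is counted among the 10.

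One H2A gene went the other way. H2ac6 was at 33.1, 30 and 30.4 CPM in noncycling cells and at 16.5, 12.3 and 13.5 CPM in S cells, a log2 fold change of -1.16 with SE 0.12 (edgeR adjusted p = 0.000953). All 3 S libraries lay below all 3 noncycling libraries. H2ac18, H2ac7 and H2ac25 did not pass the test, at log2 fold changes of 0.44, 0.86 and -0.41.

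The H2bc genes, which encode H2B, split in the same manner: 10 of 16 tested members rose, 1 fell and the median log2 fold change was 1.58. H2bc11 was at 2.83, 2.14 and 3.0 CPM in noncycling and at 27, 10.2 and 17.4 CPM in S cells of Cont, CIA and CIA+VFX, a log2 fold change of 2.72 with SE 0.23 (edgeR adjusted p = 0.000521). The groups did not overlap. H2bc4, the member with most UMIs, fell from 963, 1071 and 933 CPM to 375, 420 and 472 CPM, a log2 fold change of -1.24 with SE 0.11 (edgeR adjusted p = 0.000563). Here the S libraries were all below the noncycling ones, and H2bc4 alone outweighed the other H2bc genes in the family sum.

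Among H3c genes, which encode H3, 8 of 11 tested members rose and 1 fell. H3c3 was at 1.61, 1.48 and 1.87 CPM in noncycling cells of Cont, CIA and CIA+VFX and at 58.7, 21.8 and 37.7 CPM in S cells. Its log2 fold change was 4.51 with SE 0.26 (edgeR adjusted p = 0.00014), and the groups were far apart in every library. H3c4 was at 14.3, 6.93 and 8.32 CPM in noncycling and 5.90, 4.55 and 5.98 CPM in S cells, a log2 fold change of -0.81 with SE 0.21 (edgeR adjusted p = 0.0238). That call was lost without the Cont library, at -0.53, and without the CIA library, at -0.86.

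The H4c genes, which encode H4, had a smaller median change than the other core families, with 6 of 11 tested members called higher, 0 lower and a median log2 fold change of 0.86. H4c4 was at 29.6, 12.9 and 16.5 CPM in noncycling and 44.2, 15.2 and 28.8 CPM in S cells, and the groups overlapped. Its log2 fold change of 0.55 with SE 0.14 (edgeR adjusted p = 0.0236) did not pass without the Cont library, at 0.56, or without the CIA+VFX library, at 0.41. H4c9 was at 46.7, 35.7 and 40.5 CPM in noncycling and 46.3, 35.3 and 44.1 CPM in S cells, a log2 fold change of 0.02 with SE 0.089. H4c1 was called in all 3 libraries together, at 0.86, and lost whenever 1 library was left out, at 0.64 without Cont, 0.90 without CIA and 1.06 without CIA+VFX.

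**Figure D1:**
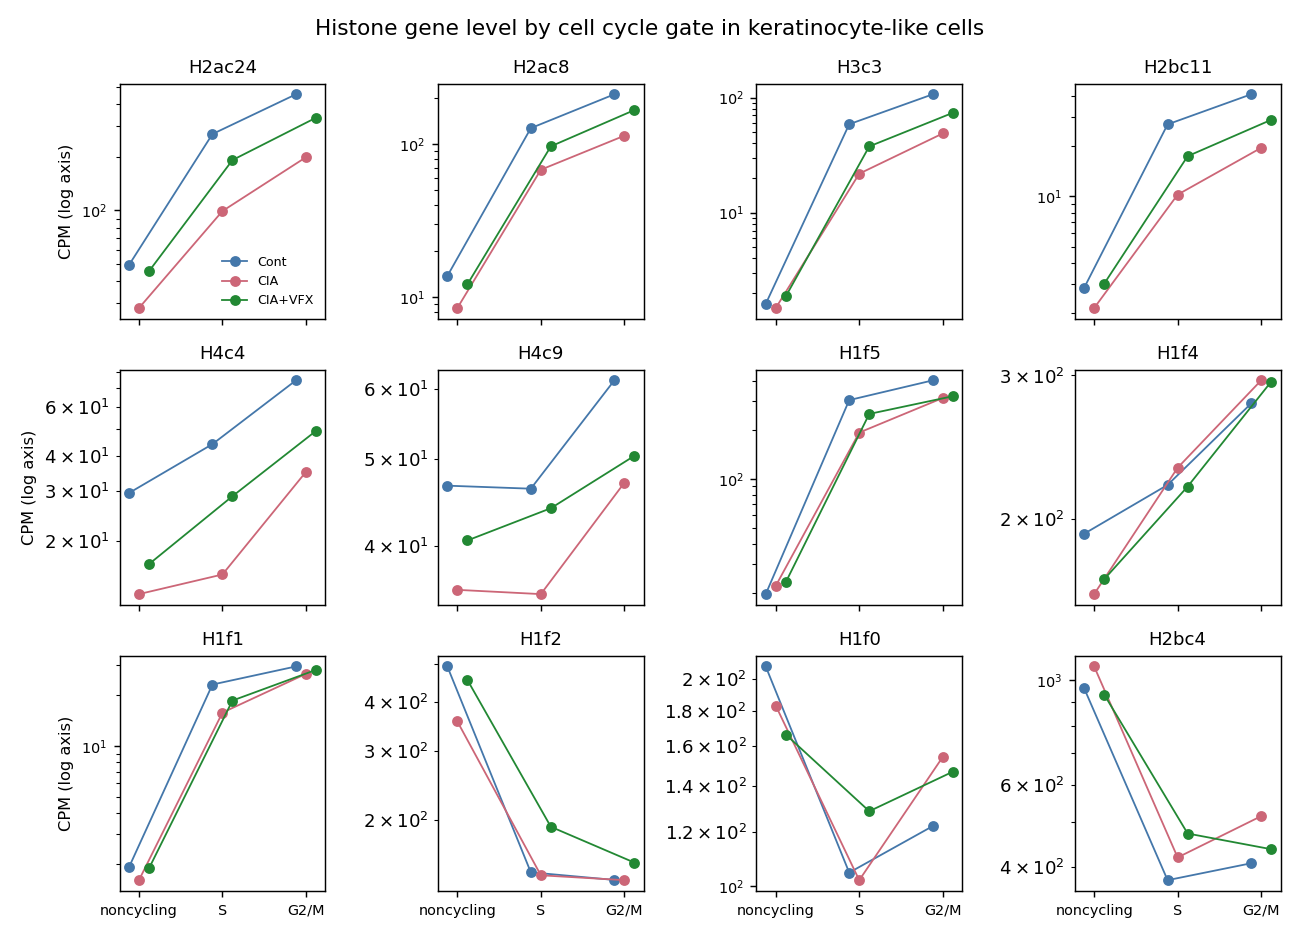
Level of 12 histone genes in noncycling, S-gated and G2/M-gated keratinocyte-like cells, in CPM on a log axis that differs between panels, with 1 point per library. H2ac24, H2ac8, H3c3, H2bc11, H1f5 and H1f1 climb from noncycling to G2/M in all 3 libraries, whereas H1f2 and H2bc4 drop.

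The linker histone genes divided by subtype. Of 7 H1f members tested, H1f1, H1f3, H1f4, H1f5 and H1f10 rose in S cells and H1f0 and H1f2 fell. H1f5 was at 19.7, 22.1 and 23.3 CPM in noncycling cells of Cont, CIA and CIA+VFX and at 304, 192 and 250 CPM in S cells, a log2 fold change of 3.49 with SE 0.18 (edgeR adjusted p = 0.000102). H1f1 was at 1.90, 1.59 and 1.87 CPM and then at 23.1, 15.7 and 18.6 CPM, a log2 fold change of 3.40 with SE 0.16 (edgeR adjusted p = 8.71e-05). Neither gene overlapped between the states in any library. H1f10 went from 24.4, 19.2 and 17.6 to 45.2, 42.5 and 47.5 CPM, a log2 fold change of 1.14.

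H1f3 and H1f4 rose by less. H1f3 was at 22.4, 20 and 23.2 CPM in noncycling and 43.2, 30.4 and 30.7 CPM in S cells, a log2 fold change of 0.64. H1f4 was at 192, 162 and 169 CPM and then at 220, 231 and 219 CPM, a log2 fold change of 0.35 with SE 0.089 (edgeR adjusted p = 0.0233). Both calls depended on the cells compared: within basal and outer root sheath-like cells alone, a comparison chosen after the data were seen, H1f3 was at 0.11 and H1f4 at -0.07, and neither passed. H1f4 also failed without the CIA library, at 0.30, and without the CIA+VFX library, at 0.33.

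H1f2 was at 492, 357 and 455 CPM in noncycling cells of Cont, CIA and CIA+VFX and at 147, 145 and 192 CPM in S cells. All S libraries were below all noncycling libraries, and the log2 fold change was -1.44 with SE 0.12 (edgeR adjusted p = 0.000493). H1f0, the subtype associated with cells that have left the cycle, was at 209, 183 and 166 CPM and then at 105, 102 and 129 CPM, a log2 fold change of -0.75 with SE 0.14 (edgeR adjusted p = 0.00715). The H1f0 call was lost without the CIA library, at -0.67. H1f6, H1f7, H1f8 and H1f9 were too low to test.

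In basal and outer root sheath-like cells alone, 32 of 51 members rose and 10 fell (26.5% and 25% of all 14219 genes tested). H1f2, H2bc4, H2ac6, H3c4 and H1f0 fell there too, by 1.83, 1.62, 1.49, 1.15 and 1.17 on the log2 scale. The other 5 that fell were H4c16, H2ac25, H2bc24, H2bc6 and H4c9, at -0.92, -0.80, -0.78, -0.75 and -0.64.

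The length of the transcript model after the stem-loop went with these directions. Of the 59 members tested, 30 matched the stem-loop pattern, and the H4c genes were not among them. Over these 30, Spearman's rho between the bases after the stem-loop and the S log2 fold change was -0.613. That is a description across genes that share sequence and libraries. The 9 members with more than 500 bases after the stem-loop had a median log2 fold change of -0.42, with 3 called higher and 3 lower. The 21 members with 500 or fewer had a median of 2.61, with 16 called higher and 0 lower. Over all genes tested, 21% were called higher and 19.7% lower. The limit of 500 bases was chosen after the values were seen. Of the 9 facing H2A and H2B pairs, 7 had both genes tested and in 5 of these both rose. Taken singly, 10 of 14 H2ac and 10 of 16 H2bc genes rose, and a part of the pairing in this was not tested.

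Levels in G2/M-gated keratinocyte-like cells were higher still. Against noncycling cells, 48 of 60 members rose and 4 fell, with a median log2 fold change of 2.70 (23.9% of all 16166 genes were called higher and 21.9% lower, edgeR). H2ac24 reached 454, 200 and 335 CPM in Cont, CIA and CIA+VFX, H3c3 107, 48.8 and 73.7 CPM and H1f5 402, 313 and 321 CPM, at log2 fold changes of 3.05, 5.57 and 4.06. H1f2, H2bc4, H2ac6 and H4c16 were the 4 that fell, at -1.49, -1.06, -1.09 and -0.61. H1f0 was at 122, 154 and 147 CPM and did not pass, at -0.33 with an edgeR adjusted p of 0.0931. H4c4 rose to 74.6, 35.2 and 49.3 CPM, a log2 fold change of 1.52.

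**Figure D2:**
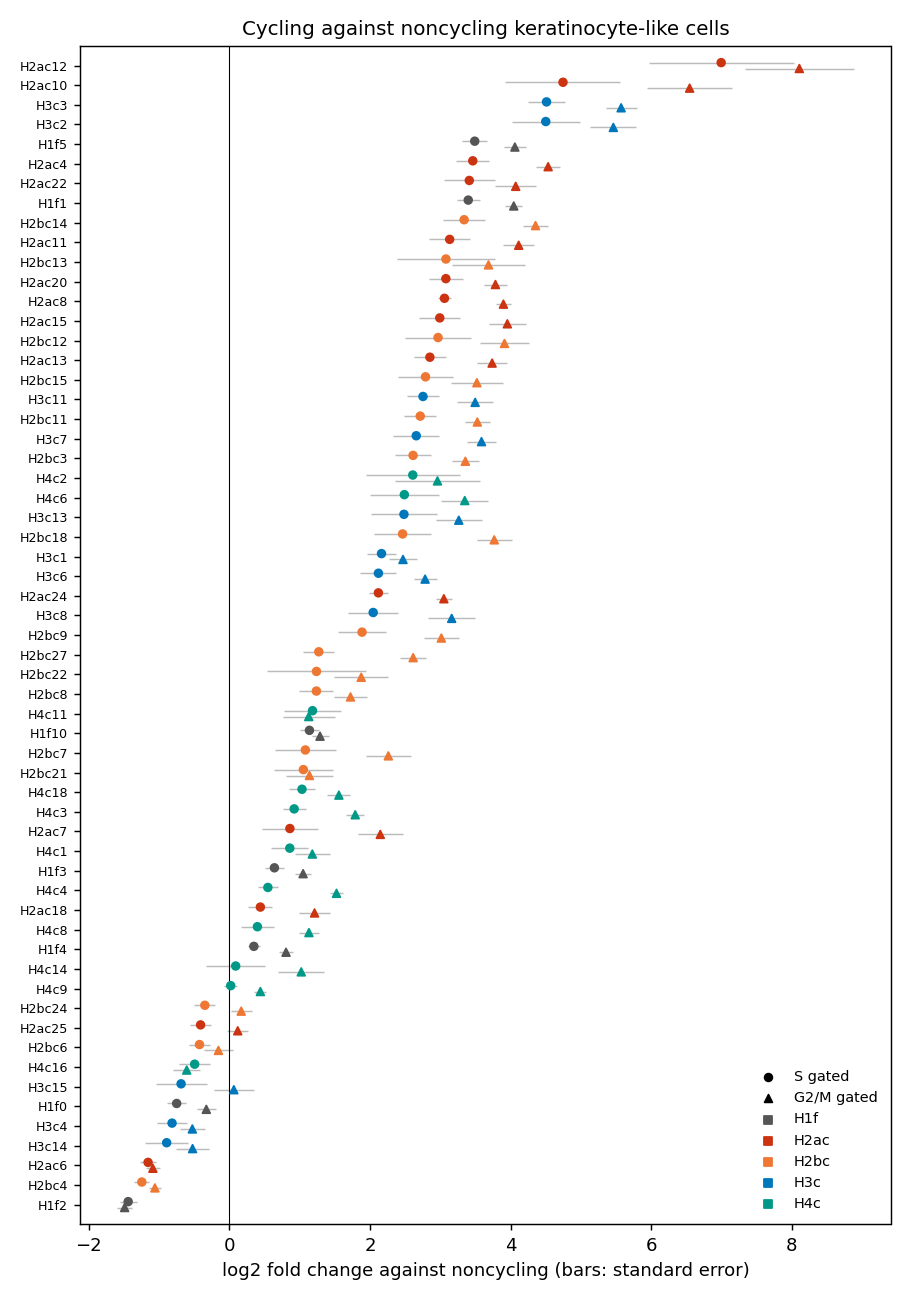
Log2 fold change against noncycling keratinocyte-like cells for each member tested, with circles for S-gated and triangles for G2/M-gated cells, colours for the families and bars for the standard error. The ordering by S value runs from H1f2 at -1.44 to H2ac12 at the top, whose fitted value rests on 0 UMIs in noncycling cells, and nearly all triangles of the rising genes lie to the right of their circles.

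The direct comparison of the gates gave the same ordering. Of 57 members tested, 0 were higher in S than in G2/M cells and 21 were lower, with a median log2 difference of -0.72, whereas 1.22% of all 14147 genes were higher and 2.73% lower (edgeR). At an unadjusted p under 0.05, 41 members differed (21.3% of all genes), and DESeq2 called 0 of 38 higher and 15 lower (1.41% and 2.9% of all genes). H2ac24, H2ac8 and H3c3 were among the 21, at -0.90, -0.81 and -1.04. For 5 of the 21, all S libraries lay below all G2/M libraries, a count for which no share over all genes was computed. H2ac24 and H3c3 overlapped between the gates. The count of calls fell to 13 without the CIA library and to 8 without the CIA+VFX library. Other gates also gave members higher in S: H1f2 and H2bc4, at 0.45 and 0.20, with a gate of 2 UMIs, and H1f2, H2bc4 and H2ac6, at 0.99, 0.66 and 0.51, with gates on unthinned counts.

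The S and G2/M lists overlap in time, so keratinocyte-like cells were also split into those with at least 3 UMIs of the S list and at most 1 of the G2/M list, those with at least 3 of each, and those with at least 3 of the G2/M list and at most 1 of the S list, a split chosen after the data were seen. Of the 34 members with at least 1000 UMIs, 26 had their highest mean level in the cells with both, 5 in the S only cells and 3 in the G2/M only cells, compared with 32.5%, 45.4% and 22.1% of all 13173 genes with as many UMIs. H2ac24 was at 78.3, 41.9 and 96.8 CPM in S only cells of Cont, CIA and CIA+VFX, at 496, 234 and 390 CPM in cells with both and at 319, 121 and 239 CPM in G2/M only cells. H3c3 followed the same course, with 14.3, 4.79 and 14.3, then 120, 59.8 and 85.7, then 67.8, 31.8 and 50.3 CPM. H1f5 did so too, with 120, 76.2 and 108, then 497, 418 and 411, then 243, 158 and 191 CPM. In each library these 3 genes were highest in the cells with both. Of the 26, 25 were highest there in every library, a count for which no share over all genes was computed. The members with the highest mean in S only cells were H1f2, H2ac6, H2bc4, H2bc6 and H4c16, of which H1f2, H2ac6 and H4c16 were highest there in all 3 libraries. H1f0, H2bc27 and H3c4 had the highest mean in G2/M only cells, but of these H1f0 alone was highest there in all 3 libraries: H2bc27 was so in Cont only and H3c4 in CIA only. H1f2 was at 205, 181 and 289 CPM in S only, 126, 130 and 132 CPM in both and 165, 139 and 199 CPM in G2/M only cells.

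**Figure D3:**
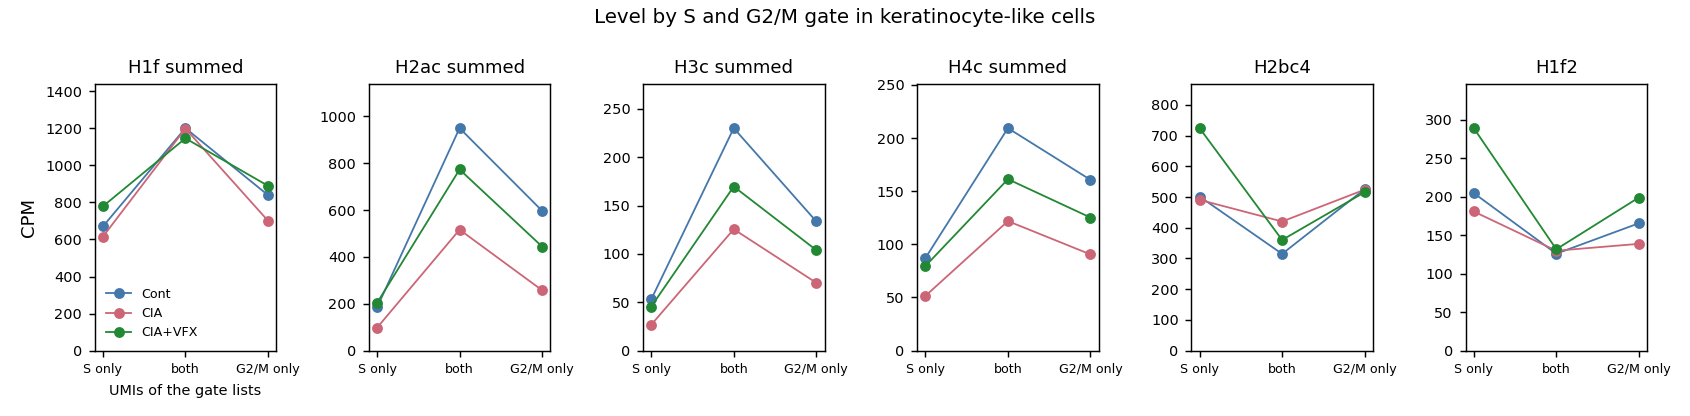
Summed level of 4 histone families and level of H2bc4 and H1f2, in CPM from 0, in keratinocyte-like cells with S list UMIs only, with both and with G2/M list UMIs only, with 1 line per library. The H2ac, H3c and H4c sums peak in cells with both in every library and are lowest in CIA there, as in the H2ac sum of 516 CPM in CIA against 950 in Cont and 773 in CIA+VFX.

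T, NK and innate lymphoid-like cells, with 224, 310 and 236 cycling and 656, 637 and 503 noncycling cells in Cont, CIA and CIA+VFX, showed larger differences. Of 41 members tested, 38 rose in cycling cells and 0 fell, with a median log2 fold change of 2.88 (16.3% of all 10092 genes were higher and 12.6% lower, edgeR). Some of the 38 passed the count filter through the cycling cells, so that a fall could not have been seen. H2ac10 and H3c2 had 0 UMIs in noncycling cells of every library. H2bc14, H2bc15 and H2ac11 had 1, 1 and 2 UMIs there, each in 1 library. These genes enter the count and the median. At an unadjusted p under 0.05, 39 members passed (38.6% of all genes), and DESeq2 called 35 higher and 0 lower (7.91% and 6.36% of all genes). H3c3 was at 0.913, 0.764 and 0.956 CPM in noncycling and at 147, 84.5 and 129 CPM in cycling cells, a log2 fold change of 6.99 with SE 0.26. H1f5 went from 7.61, 9.93 and 7.65 to 530, 336 and 394 CPM, a log2 fold change of 5.60. H2ac24 went from 24, 9.17 and 18.6 to 573, 248 and 456 CPM, a log2 fold change of 4.59. For each of these genes all cycling libraries lay above all noncycling ones.

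H1f2, H2bc4 and H1f0, which fell in S-gated keratinocyte-like cells, were not called lower in the lymphoid-like cells. H1f2 was at 121, 95.5 and 141 CPM in noncycling and 200, 155 and 180 CPM in cycling cells, a log2 fold change of 0.55 with SE 0.12 (edgeR adjusted p = 0.0005). H2bc4 was at 0.28 (edgeR adjusted p = 0.114) and H1f0 at -0.07, and neither passed. H1f4 rose from 92.8, 110 and 142 to 601, 492 and 526 CPM, a log2 fold change of 2.20. In a joint edgeR fit of both groups, chosen after the data were seen, the cycling against noncycling difference was larger in the lymphoid-like cells for 14 of 58 members and smaller for 0, whereas 4.58% of all 15838 genes were larger and 3.59% smaller. At an unadjusted p under 0.05, 23 members were larger and 1 smaller (13.4% and 10.1% of all genes). The 14 included H1f2, H2bc4 and H2ac6, at log2 differences of 2.12, 1.49 and 2.92, and also H3c3, H1f5 and H2ac24, at 1.88, 1.81 and 1.90.

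Macrophage and monocyte-like cells had few cycling cells, 44, 62 and 43 against 871, 1268 and 818 noncycling cells. There 13 of 25 members rose and 0 fell, with a median log2 fold change of 1.96 (2.61% of all 10241 genes were higher and 1.02% lower, edgeR). Of the 25, 19 passed an unadjusted p of 0.05 (13.9% of all genes), and DESeq2 called 12 higher and 0 lower (2.23% and 0.332% of all genes). H3c3 was at 0.894, 0.563 and 0.624 CPM in noncycling and 43.2, 28.8 and 35.5 CPM in cycling cells, a log2 fold change of 5.52 with SE 0.59. H1f5 went from 3.22, 8.03 and 12.1 to 159, 191 and 242 CPM and H1f4 from 31.3, 125 and 107 to 227, 241 and 236 CPM, at log2 fold changes of 4.65 and 1.48. These 3 genes were higher in all cycling libraries than in any noncycling one. H1f2 and H2bc4 did not pass, at -0.43 and -0.15 (edgeR adjusted p = 0.265 and 0.792). The cycling cells joined 28, 44 and 30 S-gated with 16, 18 and 13 G2/M-gated cells of Cont, CIA and CIA+VFX. All members summed to 334, 483 and 1559 CPM in the S-gated and to 2283, 2674 and 2197 CPM in the G2/M-gated cells. Over the whole class the sum was 460, 694 and 772 CPM. In Cont and CIA the S-gated sum was thus below that of the class, and the high levels were those of the few G2/M-gated cells. Fibroblast-like cells had 25, 54 and 51 cycling cells, too few in Cont for a test, and cycling shares of 2.09%, 2.51% and 3.94%.

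Cell classes differed in summed histone level. The summed level of all members was highest in companion layer-like cells, at 2294, 2536 and 3123 CPM in Cont, CIA and CIA+VFX, and in basal and outer root sheath-like cells, at 2741, 2337 and 2586 CPM, and these overlapped. Inner root sheath-like cells followed at 1953, 1579 and 1806 CPM, without overlap with the basal class. The lowest of the 16 classes was dermal papilla and sheath-like, at 248, 248 and 290 CPM, so the highest mean was 10.1 times the lowest. Of the 15 neighbouring pairs in this order, 10 overlapped. The share of cycling cells was 60%, 30.9% and 64.9% in the companion layer-like class, 25.9%, 34.4% and 36.8% in the basal class and 41.2%, 38.2% and 40.3% in the inner root sheath-like class. It was 18.9%, 25.2% and 23.6% in lymphoid-like and 4.04%, 4.0% and 4.28% in macrophage and monocyte-like cells. The companion layer-like class held only 90, 56 and 61 cells, and its summed level was 1513.3 CPM when cells were classed by cluster.

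Of the 34 members with at least 1000 UMIs, 18 were highest in companion layer-like cells, 5 in basal and outer root sheath-like and 5 in lymphoid-like cells, compared with 6.07%, 3.33% and 9.47% of all 13173 genes with as many UMIs. The libraries of the highest class did not overlap those of the second for 7 of the 18, 2 of the 5 basal and 0 of the 5 lymphoid-like members. No share over all genes was computed for this lack of overlap, so these counts stand without a comparison. H1f5 was at 315, 425 and 416 CPM in companion layer-like cells and at 185, 174 and 181 CPM in the inner root sheath-like class next to it, with no overlap. H2bc4 was highest in basal and outer root sheath-like cells, at 922, 996 and 874 CPM, above sebocyte-like cells at 573 CPM in CIA and 611 in Cont, and lowest in vascular endothelial-like cells at 28.2, 53.1 and 58.2 CPM. H1f2 was highest in the same basal class, at 479, 327 and 392 CPM, where it overlapped the sebocyte-like class. H2ac6 stood out in matrix and hair shaft-like cells, the layer that forms the hair, at 47.8, 43.1 and 57.1 CPM, above every library of the next class. H2ac25 was highest in macrophage and monocyte-like cells, at 21.6, 29.8 and 24.1 CPM. H3c3 had 0 UMIs in all 3 libraries of melanocyte-like cells.

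**Figure D4:**
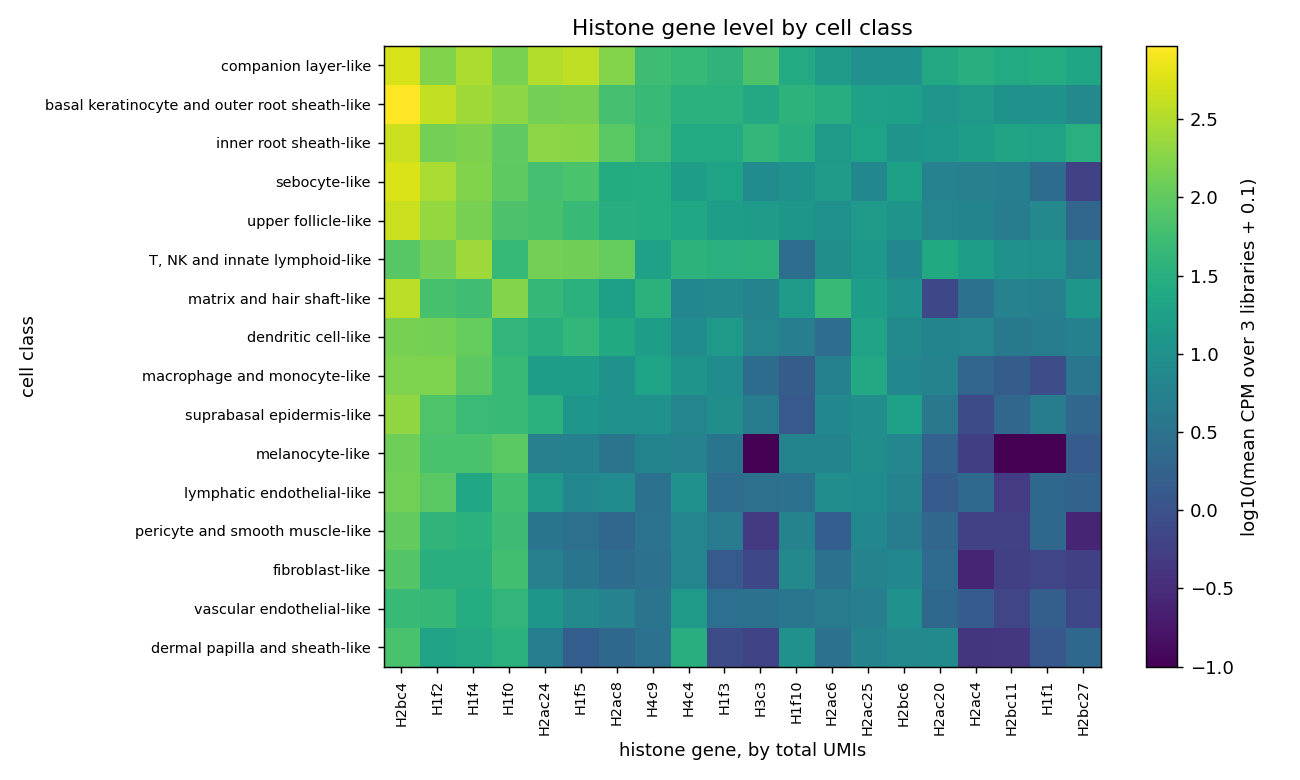
Mean level over the 3 libraries, as log10 of CPM plus 0.1, of the 20 members with most UMIs (columns) in 16 cell classes (rows, in the order of the summed level of all members). H2bc4, H1f2, H1f4 and H1f0 are bright in most rows, H2ac6 is brightest in matrix and hair shaft-like cells, and H3c3 is at the floor in melanocyte-like cells.

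Within one cell cycle state the CIA library was lower than Cont for most core histone genes. In S-gated keratinocyte-like cells, 41 members had at least 50 UMIs over the pair, and 27 of them were at least 1.5-fold lower and 0 higher in CIA, whereas 5.94% of all 10917 genes were that much lower and 12.5% higher. The median log2 ratio was -0.86 for the members and 0.03 for all genes. In G2/M-gated cells 34 of 51 were lower and 0 higher, with a median of -0.85 (6.55% and 16.3% of all genes). In noncycling cells 12 of 35 were lower and 0 higher, with a median of -0.34 (6.58% and 10.7% of all genes). The median difference was thus smaller in noncycling than in gated cycling cells, over fewer members, and it changed with thinning. Over the 17 members still measurable with every noncycling cell thinned to 2000 UMIs, the median was -0.05, compared with -0.39 for those members unthinned. These members were mixed. When thinned, H4c4, H2bc24, H2ac24, H2bc6, H2ac8, H3c4 and H4c16 stayed lower in CIA, at -0.97, -0.89, -0.69, -0.64, -0.51, -0.44 and -0.26. The H1f genes lay between -0.16 and 0.25, and H2bc4, H2ac6, H2ac25 and H4c9 were at 0.4, 0.29, 0.08 and 0.01.

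H2ac24 in S cells was at 271 CPM in Cont and 99.2 CPM in CIA, a log2 ratio of -1.45 (95% counting interval -1.59 to -1.31). H3c3 was at 58.7 and 21.8 CPM, a log2 ratio of -1.43 (-1.73 to -1.13), and H4c4 at 44.2 and 15.2 CPM, a log2 ratio of -1.54 (-1.91 to -1.19). H2bc11 was at 27 and 10.2 CPM, a log2 ratio of -1.40 (-1.85 to -0.96). These 4 genes, 1 from each core family, were lower in CIA by more than their counting intervals. The largest differences among members past the UMI minimum in S cells were those of H2bc18, H4c8 and H2ac11, at -2.10, -1.96 and -1.94.

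Most linker genes and H2bc4 differed less between Cont and CIA. In S cells the log2 ratio of CIA to Cont was 0.07 for H1f4, -0.03 for H1f2, -0.04 for H1f0, -0.09 for H1f10 and 0.16 for H2bc4. H1f5 was at 304 CPM in Cont and 192 in CIA, a log2 ratio of -0.66 and the only one of the 7 H1f genes past 1.5-fold in S cells, while H1f1 and H1f3 were at -0.55 and -0.51. H1f5 was at -0.36 in G2/M cells. Summed over families, the ratio of CIA to Cont in S cells was 0.449 for H2ac (interval 0.421 to 0.478), 0.477 for H3c, 0.529 for H4c, 0.855 for H1f (0.823 to 0.889) and 0.952 for H2bc. Without H2bc4, an exclusion chosen after the data were seen, the H2bc ratio was 0.419. In G2/M cells the ratios were 0.499 for H2ac, 0.512 for H3c, 0.559 for H4c, 0.949 for H1f and 0.520 for H2bc without H2bc4.

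H2az1, a replication independent H2A variant, was at 1368, 1217 and 1407 CPM in S cells of Cont, CIA and CIA+VFX. Other measures moved with the library: in S cells the mitochondrial share was 3.02%, 2.52% and 3.13%, the ribosomal protein share 19.9%, 17.8% and 19.2%, and the nuclear RNA Malat1 was at 7864, 10072 and 8346 CPM. The median depth of S cells was also lower in CIA than in Cont, and with every cell thinned to 2000 UMIs H2ac24 was at -1.30 in S and -1.53 in G2/M cells and H3c3 at -1.22 in G2/M cells. Over the 10 members still measurable in thinned S cells the median log2 ratio was -0.11, compared with -0.24 for those members unthinned, and over the 17 in G2/M cells it was -0.47 compared with -0.41. The part of these measures in the histone difference was not tested.

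The CIA+VFX library lay between the other 2 for most members in S-gated and in G2/M-gated keratinocyte-like cells. CIA+VFX was compared with CIA and with Cont, so these comparisons share libraries and are not independent of the CIA to Cont values. In S cells 16 of 39 members were at least 1.5-fold higher in CIA+VFX than in CIA and 0 lower (2.55% and 7.44% of all genes), with a median log2 ratio of 0.41. Against Cont, 13 of 42 were lower and 0 higher (4.41% and 6.35% of all genes), with a median of -0.39. H2ac24 was at 271, 99.2 and 193 CPM in S cells of Cont, CIA and CIA+VFX, and its log2 ratio of CIA+VFX to CIA was 0.96 (0.82 to 1.10). H3c3 and H4c4 were at 0.79 and 0.93 in the same comparison. Of 44 members with enough UMIs, CIA was lowest and CIA+VFX between in 36, and CIA was lowest in 41, compared with 21.4% and 32.6% of all genes. In G2/M cells CIA was lowest and CIA+VFX between in 42 of 56 members (22.4% of all genes), and 16 of 51 were at least 1.5-fold higher in CIA+VFX than in CIA and 0 lower (2.11% and 5.23% of all genes). Against Cont, 9 of 53 were lower and 0 higher in G2/M cells (4.8% and 13% of all genes). In noncycling cells 7 of 34 were higher in CIA+VFX than in CIA and 0 lower (4.71% and 4.87% of all genes), and 5 of 39 were lower than in Cont and 0 higher (6.2% and 10.1%).

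**Figure D5:**
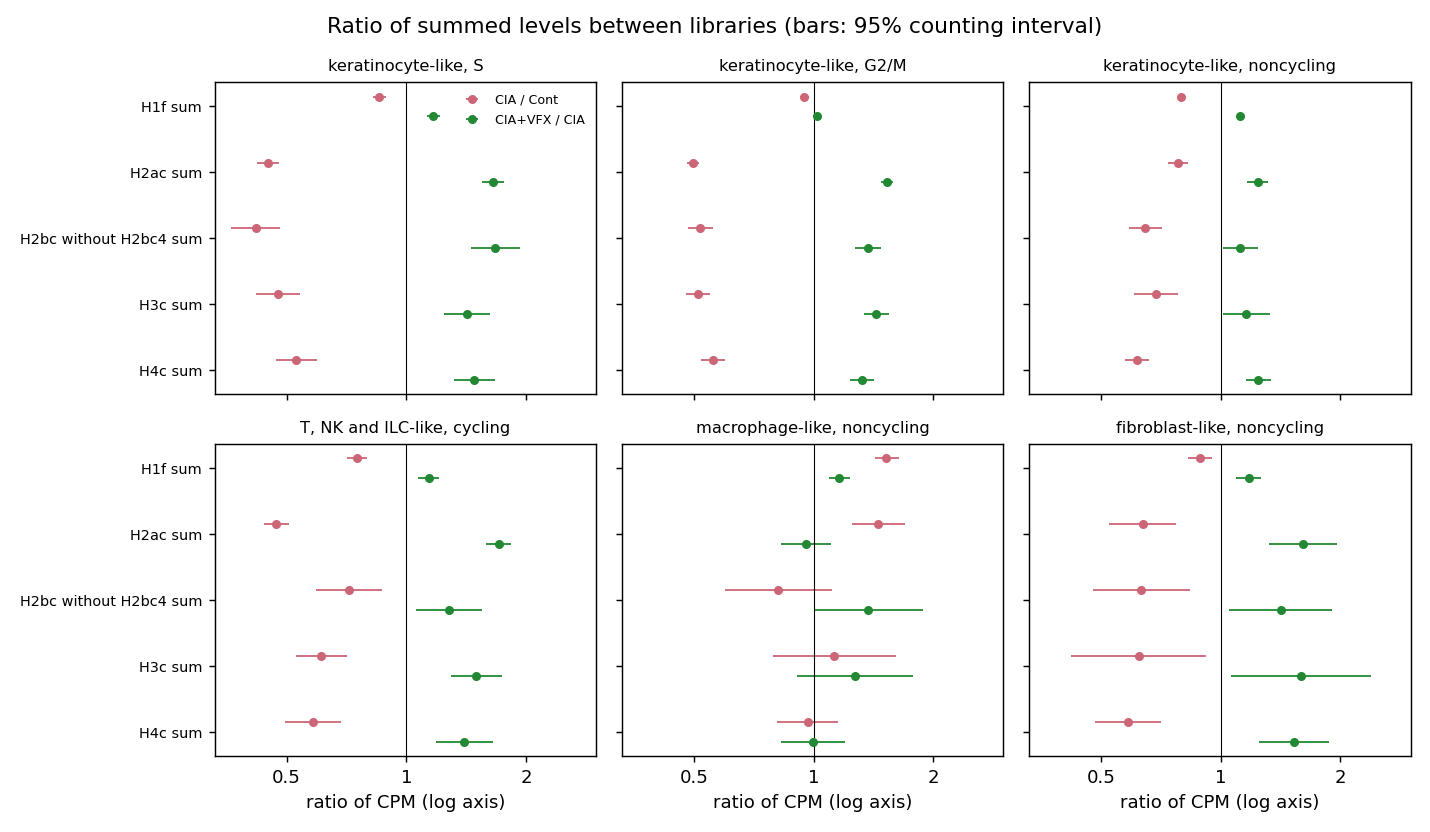
Ratio of summed CPM between libraries on a log axis, for 4 histone families and the H2bc genes without H2bc4, in 6 combinations of class and state, with red for CIA over Cont, green for CIA+VFX over CIA and bars for the 95% counting interval. In cycling keratinocyte-like and lymphoid-like cells the H2ac, H3c and H4c ratios lie left of 1 in red and right of 1 in green, whereas in macrophage-like cells the H1f and H2ac ratios of CIA to Cont are 1.53 and 1.46.

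Within single epithelial classes, members at least 1.5-fold lower in CIA than in Cont outnumbered those higher in both gates of the basal and outer root sheath-like class and in G2/M-gated inner root sheath-like cells, but in S-gated inner root sheath-like cells the families differed in which library was lowest. In basal and outer root sheath-like cells, 16 of 28 members were at least 1.5-fold lower and 0 higher in S (5.52% and 9.36% of all genes), and 31 of 44 were lower and 1 higher in G2/M (6.49% and 14.1%). In the same G2/M cells 23 of 46 were higher in CIA+VFX than in CIA and 0 lower (2.04% and 5.75%). In G2/M-gated inner root sheath-like cells 17 of 39 were lower and 1 higher (7.08% and 6.62%), and CIA was lowest with CIA+VFX between in 19 of 43 (16.4%). S-gated inner root sheath-like cells numbered 66, 19 and 58 in Cont, CIA and CIA+VFX. Their H3c sum was at 160, 190 and 146 CPM and their H4c sum at 181, 203 and 137 CPM, highest in CIA, while the H2ac sum was at 694, 565 and 663 CPM, lowest in CIA. H2ac24 in G2/M cells was at 457 CPM in Cont, 175 in CIA and 345 in CIA+VFX of the basal class, and at 453, 244 and 402 CPM of the inner root sheath-like class. H1f5 did not follow across these classes: it was at 481, 272 and 344 CPM in basal and at 318, 372 and 335 CPM in inner root sheath-like G2/M cells, with CIA lowest in the first and highest in the second.

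In cycling T, NK and innate lymphoid-like cells CIA was lowest with CIA+VFX between in 18 of 33 members and CIA was lowest in 23, compared with 19.2% and 28% of all genes. There 14 of 24 members were at least 1.5-fold lower in CIA than in Cont and 1, H1f0, was higher (10.6% and 15.1% of all genes), with a median log2 ratio of -0.74. H2ac24 was at 573, 248 and 456 CPM in Cont, CIA and CIA+VFX and H2ac8 at 454, 215 and 366 CPM. The ratio of CIA to Cont was 0.471 for the H2ac sum (0.438 to 0.506), 0.611 for H3c, 0.584 for H4c and 0.752 for H1f. Against CIA, 9 of 23 members were at least 1.5-fold higher in CIA+VFX and 0 lower (4.24% and 6.3% of all genes). H1f0 was at 23.5 CPM in Cont, 47.1 in CIA and 65.6 in CIA+VFX.

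Noncycling cells of other classes did not share 1 pattern. In fibroblast-like cells 6 of 15 members were lower in CIA and 0 higher (7.55% and 6.85% of all genes), among them H2ac24 at 4.75, 0.941 and 4.06 CPM and H4c4 at 8.93, 3.29 and 7.27 CPM. In macrophage and monocyte-like cells 4 of 15 were higher and 2 lower in CIA (18.8% and 8.97%). H1f4 was at 31.3 CPM in Cont, 125 in CIA and 107 in CIA+VFX there, a log2 ratio of CIA to Cont of 2.0 (1.77 to 2.24), and H2bc4 at 82.4, 214 and 185 CPM, a log2 ratio of 1.38. These 2 genes were high in both libraries of the CIA model and low in Cont. In noncycling lymphoid-like cells 2 of 11 were higher and 3 lower in CIA (9.55% and 7.99%).

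The CIA+VFX library was at least 1.5-fold above CIA for 4 of 13 members in noncycling fibroblast-like cells and below for 0 (3.92% and 2.96% of all genes). For macrophage and monocyte-like cells it was above for 4 of 15 and below for 1 (4.7% and 2.26%), and for noncycling lymphoid-like cells above for 3 of 8 and below for 1 (4.6% and 5.01%). Against Cont it was above for 2 of 13 members and below for 1 in fibroblast-like cells (7.96% and 6.54%), above for 8 of 14 and below for 0 in macrophage and monocyte-like cells (19% and 7.4%), and above for 4 of 11 and below for 0 in noncycling lymphoid-like cells (6.31% and 5.39%). In each of these 3 classes more members stood above Cont than below, as was the case over all genes.

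Genes that make, process and deposit histones were followed in the same keratinocyte-like cells. Over all genes, 21% were called higher and 19.7% lower in S against noncycling cells. Among genes for histone mRNA synthesis, 3' processing and decay, 16 of 18 were counted, of which 13 rose and 1 fell in S cells, with a median log2 fold change of 0.75 (edgeR). Slbp, which encodes the stem-loop binding protein, rose most, from 42.7, 31.8 and 35.5 CPM in Cont, CIA and CIA+VFX to 95.1, 78 and 97.5 CPM, a log2 fold change of 1.29. Among chaperones and enzymes that act at histone deposition, 14 of the 16 counted rose and 0 fell, with a median of 1.24, Chaf1a among them, which also served in the S gate. Asf1b, a chaperone of H3 and H4, went from 0.681, 1.04 and 0.974 to 11.6, 11.8 and 13.7 CPM, a log2 fold change of 3.78. Of 9 replication independent variants, 7 rose and 2 fell in S cells, with a median of 1.37, and H2az1 was at the top with 2.14. In S against G2/M cells, 21 members were lower in S, and 1.22% of all genes were called higher and 2.73% lower. There the processing list had 0 of 16 called in either direction and the chaperone list 1 higher and 0 lower. Of the 9 variants, 6 were lower in S, led by the centromeric H3 variant Cenpa at -1.96.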

How the data were processed

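The authors deposited UMI counts per gene and cell barcode, made with Cell Ranger 8.0.1 on GRCm39 from Chromium GEM-X 3' v4 libraries of polyA RNA, per the submitters' processing notes and the labels' protocols. No replicate was given, and the deposited counts were used as they stand. Barcodes needed 500 genes and no more than 15% of UMIs from mitochondria, and simulated doublets were removed (0.4% per 1000 barcodes). Classes needed a marker score of 0.2, a margin of 0.05 and at least 3 markers, limits set after the data were seen; a Langerhans-like class led by other markers and classes under 50 cells in a library were left out. S (32 genes) and G2/M (38 genes) gates used counts thinned to 2000 UMIs. Noncycling cells had at most 1 UMI summed over both lists and cycling cells at least 3 of either list. Levels used unthinned counts.

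States were tested with edgeR 4.0.16 (quasi-likelihood, library block, filterByExpr, Benjamini-Hochberg 0.05, at least 30 cells per library and state) and DESeq2 1.42.0 as an alternative in R 4.3.3, and the code was tested on simulated data. Libraries were compared by CPM ratio with an exact conditional 95% interval, at least 50 UMIs and a fold of 1.5. The members and all lists were chosen with earlier results of these data known. Named genes were linker genes with at least 100 UMIs, other members with at least 1000 and any member called in the S test. Stem-loops came from GENCODE M21 and promoters from RefSeq GRCm38.p6. No protein comparison was made.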

Additional observations from a re-analysis of the deposited data

Results flagged for a closer look

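The difference between cycling and noncycling cells was compared between T, NK and innate lymphoid-like and keratinocyte-like cells, in the joint edgeR fit chosen after the data were seen. Of 58 members, it was larger in the lymphoid-like cells for 14 and smaller for 0, compared with 4.58% and 3.59% of all genes. At an unadjusted p under 0.05, 23 were larger and 1 smaller, compared with 13.4% and 10.1% of all genes. H1f2, which fell in cycling keratinocyte-like and rose in cycling lymphoid-like cells, differed by 2.12 on the log2 scale. H2ac6 differed by 2.92 and H2bc4 by 1.49. On both sides of this test, S-gated and G2/M-gated cells were joined as cycling cells.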

How the results depend on the processing

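Each result was recomputed under alternatives of scaling, filter, gate, doublet removal, classing and left-out library. Of the results that answer a comparison, 199 recomputed values stayed near the reported one and 59 moved; of single genes 1440 stayed, 47 moved, 30 lost and 12 gained a call and 2 turned sign. No paired analysis was possible because no condition has a second library; the library block stands in every test of states. Gating on unthinned counts gave 26 of 49 called members (22 higher and 4 lower) in place of 44 of 59 (39 and 5) in S against noncycling keratinocyte-like cells. It gave 41 (3 higher and 38 lower) in place of 21 (0 and 21) in S against G2/M, and 5 in place of 13 in macrophages. It also turned H1f3 to -0.28, and basal-like cells alone turned H1f4 to -0.07. S against G2/M also gave 32 calls with no filter, 37 (2 higher and 35 lower) with a gate of 2 UMIs and 8 to 15 with 1 library left out. Leaving 1 library out gave 31 to 37 higher members in S against noncycling cells. The median log2 fold change of the tested members there moved from 1.89 to 0.89 with gates on unthinned counts. It was 1.24 with a gate of 2 UMIs, 1.24 with no filter and 2.40 with a gate of 5 UMIs. Without Cont, CIA or CIA+VFX it was 1.32, 1.99 and 1.33. In macrophages the median moved from 1.96 to 0.50 with gates on unthinned counts and to 0.85 with a gate of 2 UMIs. A gate of 5 UMIs could not be fitted in macrophages. The cause of these moves was not tested.

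Counts of members at least 1.5-fold apart between libraries depend on the UMI minimum by construction, because the number of members measured changes with it. For CIA against Cont, 41 members were measured in S, 51 in G2/M and 35 in noncycling keratinocyte-like cells. After thinning 10, 17 and 17 of them remained. Shares over all genes are not given for the alternatives, so the counts below do not show whether a difference was lost or gained. For S keratinocyte-like cells, CIA against Cont (27) gave 8 with a minimum of 200 UMIs and 4 thinned; CIA+VFX against CIA (16) gave 29 with a minimum of 10, 5 with 200 and 2 thinned; CIA+VFX against Cont (13) gave 6 with 200 and 3 thinned. For G2/M cells thinning gave 8 for CIA against Cont (34), 8 for CIA+VFX against CIA (16) and 2 for CIA+VFX against Cont (9). For noncycling keratinocyte-like cells the minimum of 10 gave 26, 18 and 8 in that order of comparisons, thinning 4, 3 and 2, and the minimum of 200 gave 2 for CIA+VFX against CIA. In macrophages the minimum of 10 gave 14, 10 and 15, that of 200 gave 3, 1 and 3, thinning 3, 1 and 3, classing by cluster 3 for CIA+VFX against CIA and subtraction of 5% free RNA 4 for CIA+VFX against Cont. In lymphoid-like noncycling cells the minimum of 10 gave 16, 11 and 10, that of 200 and thinning gave 0 in the first and second comparison, and TMM and median-of-ratios scaling each gave 2 for CIA+VFX against Cont. In fibroblasts the minimum of 10 gave 14, 13 and 9, that of 200 and thinning 0 in all 3, and free RNA subtraction 3 for CIA against Cont. These are counts of ratios with no test, so a count of 0 has no p-value.

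Summed class levels moved to 2209.2 CPM (basal), 1513.3 (companion layer) and 1717.5 (sebocyte) with cells classed by cluster, and to 308.4 (fibroblast) and 364.7 (pericyte) with no doublet removal. Depth limits thinned S cells to 10 measurable members. With 1 library per condition, the condition, the pool of mice and the library preparation cannot be told apart.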
